A study of Homo sapiens with 11 samples.

Results

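The experiment set the change in gene expression with Oct4, Sox2 and Klf4 together against the sum of the changes with each factor alone. Gene expression was measured by sequencing of polyadenylated RNA in stable lines of ARPE-19, an established human line from the retinal pigment epithelium (RPE). The lines expressed an open reading frame for GFP, a fluorescent protein used as the control (3 libraries), for Oct4, Sox2 or Klf4 (2 libraries each), or for all of Oct4, Sox2 and Klf4 (OSK, 2 libraries), and were taken after 4 days of expression. All 11 libraries of the series were used. Of the 60605 features listed, 18828 genes had a value of 10 or more in at least 2 libraries and were tested. All 5 groups share the parental line and an introduced reading frame, so GFP controls for expression of a foreign protein and not for the number of introduced genes. Library names of all factor lines carry mC and those of GFP do not, and the labels do not say what it stands for. The promoter, the species of the reading frames, the way the 3 factors were combined in OSK and whether libraries came from separate cultures are not given in the sources used here, so p-values measure only the spread between these libraries.

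Values are normalised counts, for which the authors scaled the reads of each library by its own factor. For each gene the log2 change from GFP was taken in each line on the log2(value + 1) scale, and the Oct4, Sox2 and Klf4 changes were added. The OSK change minus this sum is called the departure, which equals OSK - Oct4 - Sox2 - Klf4 + 2 × GFP. A departure of 0 means that the 3 single-factor folds multiply in OSK. Genes whose departure passed an adjusted p-value of 0.05 (limma, Benjamini-Hochberg over all genes tested) are called non-additive and were put in 4 classes. In synergistic genes the OSK change had the sign of the sum and was larger, in buffered genes it had the same sign and was smaller, and in reversed genes it had the opposite sign. The sign was that of the estimate, and a class did not require OSK to differ detectably from GFP. Genes whose sum was under 0.5 in size, and so had no net change from the single factors, are called emergent. The sum, the OSK change and the departure share the GFP libraries, so none of them is independent of the others. A change shared by every factor line but absent from GFP would enter the sum with each factor. Such a change cannot be told apart from buffering here.

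Oct4 (POU5F1), Sox2 and Klf4 are transcription factors of pluripotent cells that can reprogram differentiated cells, usually with Myc. Oct4 and Sox2 bind DNA side by side through a POU and an HMG domain, and Klf4 is a zinc-finger protein that binds GC-rich and CACCC elements. RPE cells are pigmented epithelial cells that make melanin, recycle retinoids for the photoreceptors and rest on a basement membrane, and they take on contractile and matrix-producing traits when they lose epithelial character.

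The libraries held 15053300 to 19791775 recovered reads. At least 1 read was found for 25853 to 26971 features in 9 libraries, but for 42956 in GFP replicate 1 and 32493 in OSK replicate 1, so results were recomputed without GFP replicate 1 and without both. Of 12 RPE markers 10 could be tested, and the defining markers RPE65 and DCT were under 10 in every library. Summed RPE markers ran from 33435 to 37124 normalised counts in GFP and from 15812 to 16111 in OSK. The keratin KRT8 was the largest part, with 15568 to 16617 in GFP and 6803 and 7222 in OSK. Of the markers tested only OTX2 was not lower, with 1804 to 1952 in GFP and 2007 and 1933 in OSK. Blood markers PTPRC, HBA1 and HBB were under 10 everywhere. The dose of the factors was not the same in OSK as in the single lines. POU5F1 stood at 28.7% of its Oct4-line level in OSK, SOX2 at 60.7% of its Sox2-line level and KLF4 at 105% of its Klf4-line level. The part of these doses in the departures was not tested. Reads on the human factor genes mix the introduced and the cell's own transcripts.

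Departure from the sum was common, and most of it was buffering. Of the 18828 genes tested 6762 (35.9%) were non-additive, 2932 (15.6%) with OSK higher than the sum and 3830 (20.3%) with OSK lower, and the median departure of all genes tested was -0.02. Buffered genes made up 4283 of the 6762 (63.34%), reversed genes 1572 (23.25%), emergent genes 825 (12.2%) and synergistic genes 82 (1.21%). Among buffered genes with a negative sum, the median was -1.77 for the sum and -0.44 for the OSK change. Among those with a positive sum it was 1.67 for the sum and 0.40 for the OSK change. Many reversed genes lay near GFP in OSK. Their median OSK change was 0.24 for a negative sum (median -1.07) and -0.27 for a positive sum (median 1.17). Taken alone, Oct4 changed 37.3% of the genes tested, Sox2 41.6%, Klf4 33.5% and OSK 39.7%. Without GFP replicate 1 there were 6895 non-additive genes, 6109 of them shared with the fit of all libraries, and 91.4% of the shared genes stayed in their class. The median standard error of a departure was 0.31, and for genes that did not pass the test the 95% interval had a median half-width of 1.07, so departures of up to about this size were not detectable in many of them.

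**Figure D1:**
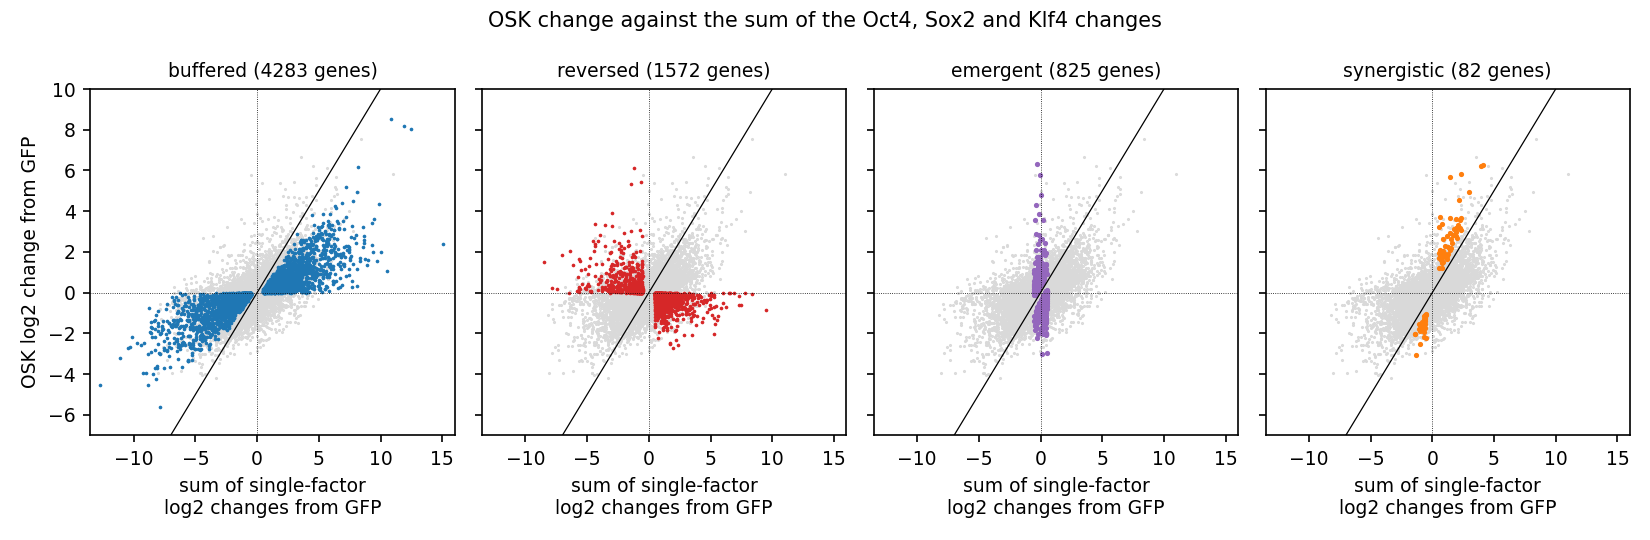
OSK log2 change from GFP (y axis) against the sum of the Oct4, Sox2 and Klf4 log2 changes (x axis), 1 point per gene, with genes that did not pass the test in grey and each of the 4 classes in colour in its own panel. The line marks equality, and the 4283 buffered genes lie between it and the dotted line of no OSK change, whereas the 1572 reversed genes lie across that dotted line.

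The level in OSK fell inside the range of the other groups for a share of non-additive genes near that of all genes tested. The shares for buffered and synergistic genes follow in part from how these classes are defined. The OSK mean lay between the lowest and the highest of the GFP, Oct4, Sox2 and Klf4 means for 67.0% of non-additive genes, for 91.0% of buffered genes and for 7.3% of synergistic genes, against 62.2% of all genes tested. The group nearest to OSK was Klf4 for 2587 (38.3%) of the non-additive genes, GFP for 26.0%, Oct4 for 18.9% and Sox2 for 16.8%. Among all genes tested Klf4 was nearest for 36.3%. Reversed genes were most often nearest to GFP (54.0%), then to Klf4 (36.2%). On the linear scale, where the single-factor differences in normalised counts are added, the departure had the same sign for 6690 (98.9%) of the non-additive genes.

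Cell division genes rose in OSK by much less than the sum of the single-factor rises. Of 40 mitosis and spindle genes tested, Klf4 raised 39, Sox2 35 and Oct4 12, and OSK raised 39. OSK lay below the sum for 32 of the 40, all of them buffered, which is 80.0% of the list against 35.9% of all genes tested. The median change was 2.56 with Klf4, 1.46 with Sox2 and 0.33 with Oct4, which sums per gene to a median of 4.38, and it was 2.45 with OSK. Klf4 was the nearest group for 39 of the 40. The median departure was -1.94, and limma called 0 members above the sum, also at an unadjusted p under 0.05, as did edgeR and DESeq2. In bulk RNA, more dividing cells and more RNA per cell cannot be told apart.

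CCNB2, a B-type cyclin that drives entry into mitosis, and PLK1, a mitotic kinase, illustrate the list and were chosen for their promoters after their values were seen. Genes of this kind are known to carry a CHR element and CCAAT boxes close to their start. The 250 bases before the RefSeq start of both genes are shown 5′ to 3′ on the gene's strand, with TTTGAA (the CHR letters) and CCAAT in capitals. CCNB2 lies at chr15:59104896-59105145 and PLK1 at chr16:23678639-23678888, both on the plus strand of GRCh38.p14.
CCNB2: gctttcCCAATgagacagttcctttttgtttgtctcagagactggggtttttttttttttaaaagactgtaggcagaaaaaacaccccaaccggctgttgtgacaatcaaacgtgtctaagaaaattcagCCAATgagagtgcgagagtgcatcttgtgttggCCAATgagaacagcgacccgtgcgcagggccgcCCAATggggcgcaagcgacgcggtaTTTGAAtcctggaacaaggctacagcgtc
PLK1: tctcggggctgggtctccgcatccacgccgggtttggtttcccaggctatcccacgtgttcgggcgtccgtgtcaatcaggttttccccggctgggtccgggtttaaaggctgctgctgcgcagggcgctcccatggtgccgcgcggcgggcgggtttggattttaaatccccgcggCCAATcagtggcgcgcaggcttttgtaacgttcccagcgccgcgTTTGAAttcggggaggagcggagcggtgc
In both promoters TTTGAA began 29 bases before the start. CCNB2 held CCAAT 244, 120, 87 and 54 bases before the start, and PLK1 held it 73 bases before. TTTGAA, searched on both strands, occurred in 13.3% of 35116 RefSeq promoters of this length and CCAAT in 32.0%. CCNB2 had 68.5, 37.4 and 55.4 normalised counts in the GFP libraries, 81.3 and 111 with Oct4, 101 and 119 with Sox2, 244 and 301 with Klf4 and 272 and 241 with OSK. All Klf4 and OSK libraries lay above all others, and OSK and Klf4 overlapped. The sum of the single changes was 4.26 and the OSK change 2.27, a departure of -1.99 (SE 0.45, limma adjusted p = 0.00245). PLK1 had 85.4, 95.1 and 68.0 normalised counts in the GFP libraries, 95.2 and 82.4 with Oct4, 177 and 182 with Sox2, 427 and 579 with Klf4 and 473 and 459.8 with OSK. Here too Klf4 and OSK stood above the rest, and the departure was -1.32 (SE 0.32, limma adjusted p = 0.00436).

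CENPE, a kinetochore motor, had 69.5, 65.8 and 57.4 normalised counts in the GFP libraries, 174 and 182 with Oct4, 292 and 245 with Sox2, 317 and 417 with Klf4 and 453 and 425 with OSK. Every factor line was above every GFP library, and OSK was above all of them. Its sum was 5.99, which would give about 4140 normalised counts, and its departure was -3.24 (SE 0.29, limma adjusted p = 3.69e-07). ANLN, which organises the contractile ring, departed by -3.16 (SE 0.27, limma adjusted p = 2.39e-07), and CEP55, needed for the final cut between daughter cells, by -3.14 (SE 0.41, limma adjusted p = 1.98e-05). OSK levels of CEP55 (297 and 304) were below those of the Klf4 line (474 and 543), with a log2 difference of -0.75, limma adjusted p = 0.0243.

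Lists of DNA replication, recombination repair, and D cyclins with kinase inhibitors also held more calls below the sum than above it, whereas p53 targets were above it for 8 and below it for 4 of 26 (median 0.32). In the DNA replication list OSK lay below the sum for 22 of 40 genes and above it for 4, with a median departure of -0.83, and 23 of the 26 were buffered. The share called was 65.0% against 35.9% of all genes tested. E2F1, the transcription factor of S-phase genes, had 70.5, 76.9 and 64.2 normalised counts in the GFP libraries, 116 and 87.0 with Oct4, 388 and 342 with Sox2, 783 and 1001 with Klf4 and 801 and 822 with OSK. Its OSK libraries lay inside the Klf4 range and above every other library, and its departure was -2.99 (SE 0.29, limma adjusted p = 8.02e-07). MCM10, which loads replication enzymes, departed by -3.17 (SE 0.69, limma adjusted p = 0.00185), and DTL, which directs destruction of the licensing factor CDT1, by -3.00 (SE 0.37, limma adjusted p = 1.01e-05). In homologous recombination and Fanconi repair 9 of 24 genes were below and 3 above (median -0.74). POLQ, the polymerase of an alternative end-joining pathway, departed by -2.72 (SE 0.51, limma adjusted p = 0.000616). Among D cyclins and inhibitors of cyclin-dependent kinases 9 of 20 were below and 2 above (55.0% called, median -0.78). CCND1, cyclin D1, had 4018, 5737 and 5409 normalised counts in the GFP libraries, 8154 and 7122 with Oct4, 21192 and 20243 with Sox2, 12567 and 11466 with Klf4 and 7343 and 7369 with OSK. All 3 factors raised it, but OSK reached the level of the Oct4 line only, so the departure was -3.37 (SE 0.23, limma adjusted p = 2.32e-08). CDKN2C, the kinase inhibitor p18, departed by -3.29 (SE 0.28, limma adjusted p = 2.59e-07). UHRF1, which keeps DNA methylation through replication, departed by -2.52 (SE 0.57, limma adjusted p = 0.00245). Its list of DNA methylation and Polycomb genes had 10 of 35 below and 2 above, 34.3% called, which is near the 35.9% of all genes tested (median -0.20).

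The pigment programme fell with Oct4 and Sox2 and was buffered in the opposite sense. Of 15 pigmentation genes Sox2 lowered 9, Oct4 8, Klf4 5 and OSK 8. OSK lay above the sum for 9 and below it for 2 (73.3% against 35.9% of all genes tested), and the median was -3.33 for the sum, -0.87 for OSK and 2.06 for the departure. PMEL, which builds the fibrils of the pigment granule, had 4094, 5281 and 6067 normalised counts in the GFP libraries, 524 and 700.5 with Oct4, 101 and 179.8 with Sox2, 1356 and 1184 with Klf4 and 868 and 749 with OSK. Every factor library was below every GFP library, Sox2 was lowest, and OSK lay between Oct4 and Klf4 levels. Multiplying the 3 folds would leave 3.04 normalised counts, so OSK stood 7.64 (SE 0.39, limma adjusted p = 1.26e-09) above the sum. TYRP1, a melanin enzyme, had 2168, 2491 and 2813 normalised counts in the GFP libraries, 236 and 312 with Oct4, 119 and 149 with Sox2, 2057 and 1204 with Klf4 and 923 and 709 with OSK. Oct4 and Sox2 libraries were the lowest, OSK libraries lay above them and below Klf4 and GFP, and its departure was 6.43 (SE 0.38, limma adjusted p = 4.92e-09). TYR, the first enzyme of melanin synthesis, departed by 6.68 (SE 0.73, limma adjusted p = 3.16e-06), and TRPM1, a melanocyte and retinal ion channel, by 7.87 (SE 0.90, limma adjusted p = 5.38e-06). For TYR and TRPM1 the level expected from the sum is below 1 normalised count, where log2(value + 1) cannot follow a product of folds. Of all 6762 non-additive genes, 351 (5.2%) had an expected level under 3, all with OSK above the sum.

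Other RPE genes went the same way in part. In the list of visual cycle and RPE function genes OSK lay above the sum for 11 of 25 and below it for 7 (72.0% called against 35.9% of all genes tested, median 0.47). MYO7A, a myosin that moves melanosomes, had 5187, 3315 and 3184 normalised counts in the GFP libraries, 655 and 623 with Oct4, 138 and 119.9 with Sox2, 1711 and 2550.3 with Klf4 and 1292 and 1755 with OSK. The Sox2 line held the lowest levels and OSK lay near Klf4, and the departure was 6.97 (SE 0.38, limma adjusted p = 2.22e-09). MFRP, an RPE membrane protein required for eye growth, departed by 6.77 (SE 0.42, limma adjusted p = 8.53e-09), and SERPINF1, the secreted factor PEDF, by 5.04 (SE 0.45, limma adjusted p = 3.9e-07). Among 8 hair keratins OSK lay above the sum for 6 and below for 1 (median 4.39), and the keratins differed in kind. KRT38 was buffered, with 995, 1318 and 1362 normalised counts in the GFP libraries, 73.2 and 144 with Oct4, 12.3 and 14.6 with Sox2, 213 and 141 with Klf4 and 58.5 and 44 with OSK. Its levels were lowest in Sox2, and OSK was below both Oct4 and Klf4, with a departure of 8.20 (SE 0.51, limma adjusted p = 8.53e-09). The level expected from the KRT38 sum lies below the floor of the log2(value + 1) scale. Any OSK level of KRT38 would therefore stand above the sum, and the size of its departure is poorly defined. KRT33B was reversed, with 392, 476 and 544 normalised counts in the GFP libraries, 124 and 143 with Oct4, 21.3 and 28.3 with Sox2, 207 and 238 with Klf4 and 2021 and 1441 with OSK. Each factor alone lowered it and OSK raised it above every other library, a departure of 8.93 (SE 0.34, limma adjusted p = 7.83e-11). Keratin genes have close copies, so reads may be split between them.

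Cytosolic ribosomal protein genes fell in OSK by less than the sum of the single-factor falls. Of 61 cytosolic ribosomal protein genes Oct4 lowered 53, Sox2 60, Klf4 46 and OSK 50. OSK lay above the sum for 58 of 61 and below it for 0 (limma, also 0 at an unadjusted p under 0.05 and with edgeR or DESeq2), 57 of them buffered, with a median of -1.33 for the sum and -0.30 for OSK. The share called was 95.1% against 35.9% of all genes tested. With scaling by TMM over all features, which lowers the median departure of all genes to -0.14, the count above was 45 and that below 0. RPL37 had 5928, 5997 and 5943 normalised counts in the GFP libraries, 4142 and 4433 with Oct4, 2868 and 2951 with Sox2, 5595 and 5092 with Klf4 and 4941 and 4990.2 with OSK. Klf4 and OSK libraries lay below GFP but above Oct4, and Sox2 was lowest, so the departure was 1.40 (SE 0.13, limma adjusted p = 4.25e-07). RPL12 departed by 1.31 (SE 0.16, limma adjusted p = 8.02e-06). These genes have many pseudogene copies that can take reads. Among 27 cytosolic chaperones OSK lay above the sum for 15 and below it for 1 (59.3% called), but for 8 and 1 with TMM over all features. HSPB8 departed upward by 2.03 (SE 0.15, limma adjusted p = 4.08e-08) and HSPA1B, whose reads cannot be told from those of its near-identical neighbour HSPA1A, by 1.66 (SE 0.15, limma adjusted p = 4.06e-07). HSPB1, a small heat-shock protein, was the exception, with 1644, 2895 and 2588 normalised counts in the GFP libraries, 4617 and 4324 with Oct4, 5334 and 6041 with Sox2, 1344 and 1208 with Klf4 and 878 and 799.6 with OSK. Oct4 and Sox2 raised it, Klf4 lowered it and OSK was below every other library, a departure of -2.85 (SE 0.32, limma adjusted p = 4.52e-06).

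Hypoxia and glycolysis genes lay above the sum for 18 of 35 and below for 4 (62.9% called against 35.9% of all genes tested, median 0.70). VEGFA, the vascular growth factor that RPE cells secrete, had 3945, 5312 and 4889.5 normalised counts in the GFP libraries, 2927 and 2766 with Oct4, 1239 and 1354 with Sox2, 4637 and 3765 with Klf4 and 3711 and 3607 with OSK. Sox2 lowered it most and Oct4 less, OSK lay just below all GFP and Klf4 libraries, and the departure was 2.38 (SE 0.22, limma adjusted p = 4.67e-07). ADM, the vasodilator peptide adrenomedullin, went the other way. It had 519, 406 and 440.4 normalised counts in the GFP libraries, 2029 and 1923 with Oct4, 905 and 998 with Sox2, 116 and 146 with Klf4 and 141 and 162 with OSK, with Oct4 and Sox2 above GFP and Klf4 and OSK below it without overlap, and a departure of -2.98 (SE 0.24, limma adjusted p = 1.49e-07). Immediate early transcription factors lay above the sum for 10 of 22 and below for 4 (63.6% called, median 0.57). FOS departed by 4.78 (SE 0.31, limma adjusted p = 1.5e-08) and EGR1 by 4.52 (SE 0.44, limma adjusted p = 8.89e-07), both lowered by every factor alone and by OSK, whereas NR4A3, raised by every line, departed by -2.56 (SE 0.46, limma adjusted p = 0.000369). SLC7A8, an amino acid transporter of RPE membranes, departed by 5.45 (SE 0.26, limma adjusted p = 5.91e-10) and its partner chain SLC3A2 by 3.30 (SE 0.16, limma adjusted p = 5.91e-10). GATA6 departed by 3.13 (SE 0.21, limma adjusted p = 2.08e-08) and SOX8 by 3.72 (SE 0.37, limma adjusted p = 1.13e-06), both transcription factors lowered by Oct4, Sox2 and OSK.

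Cholesterol synthesis and antigen presentation genes rose with the factors, and in OSK mostly by less than the sum. Of 25 cholesterol genes Oct4 raised 19, Sox2 21, Klf4 19 and OSK 21, and OSK lay below the sum for 19 and above it for 1 (80.0% called against 35.9% of all genes tested, median departure -0.88). Of those called 19 were buffered and 1 was emergent. CYP51A1, a sterol demethylase, had 331, 329.8 and 374 normalised counts in the GFP libraries, 639.8 and 698 with Oct4, 647 and 651 with Sox2, 553 and 527 with Klf4 and 544 and 531 with OSK, and its departure was -1.87 (SE 0.17, limma adjusted p = 5.7e-07). In CYP51A1 the 4 factor groups lay in a narrow band above GFP.

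Of 18 genes of HLA class I and peptide loading Klf4 raised 16, Oct4 15, Sox2 8 and OSK 16, and OSK lay below the sum for 11 and above it for 0 (limma, also 0 at an unadjusted p under 0.05 and with edgeR or DESeq2). All 11 (61.1% of the list against 35.9% of all genes tested) were buffered, and the median departure was -1.28. TAP2, a peptide transporter, had 38.7, 37.4 and 39.9 normalised counts in the GFP libraries, 240.4 and 271 with Oct4, 102 and 99.3 with Sox2, 170.0 and 135 with Klf4 and 209 and 177 with OSK. All factor libraries exceeded all GFP libraries, OSK lay between Oct4 and Klf4, and the departure was -3.71 (SE 0.32, limma adjusted p = 3.04e-07). ERAP2, a trimming peptidase, departed by -3.45 (SE 0.24, limma adjusted p = 2.89e-08), and PSMB9, an immunoproteasome subunit, by -3.40 (SE 0.67, limma adjusted p = 0.000824). HLA genes are close copies of each other and their reads may be split. Interferon-stimulated genes were below the sum for 23 of 39 and above for 1 (61.5% called, median -1.65). GBP1, an interferon-induced GTPase, had 34.8, 32.4 and 57.4 normalised counts in the GFP libraries, 819.8 and 806 with Oct4, 66.2 and 65.1 with Sox2, 53.2 and 29.7 with Klf4 and 43.4 and 47.3 with OSK. Only Oct4 libraries were far above GFP, OSK fell within the GFP range, and the departure was -4.82 (SE 0.53, limma adjusted p = 3.2e-06). OAS3, an RNA sensor, departed by -4.63 (SE 0.50, limma adjusted p = 2.67e-06) and IFI44L, which is low here, by -6.88 (SE 1.57, limma adjusted p = 0.00273).

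**Figure D2:**
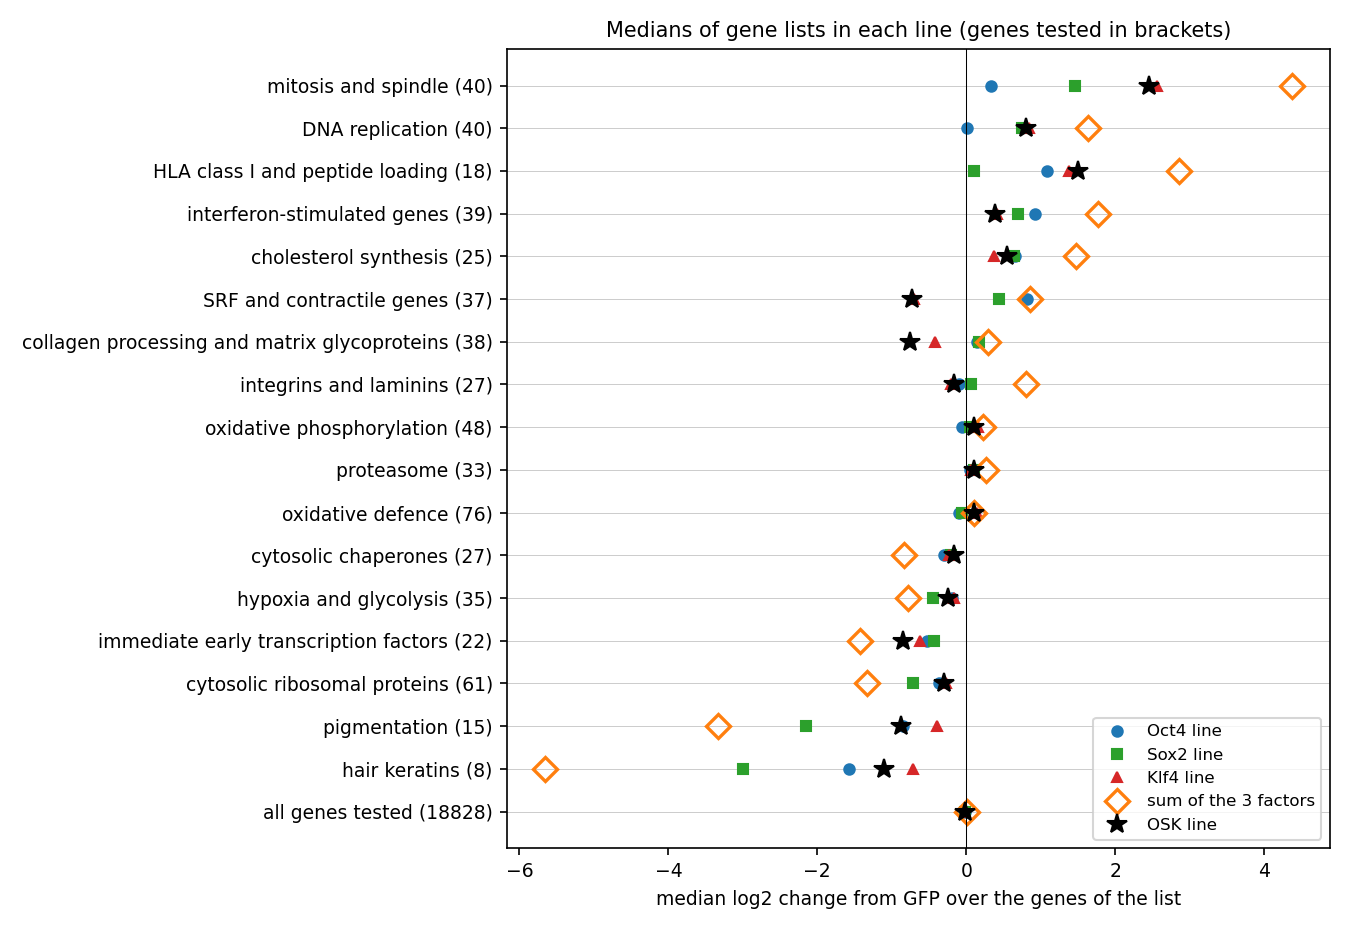
Median log2 change from GFP (x axis) over the tested genes of 17 lists and of all genes (y axis) in the Oct4, Sox2, Klf4 and OSK lines, with open diamonds for the median of the summed single-factor changes. The OSK stars sit beside the Klf4 triangles for mitosis (2.45 and 2.56) and far from the diamond (4.38), and for contractile genes they lie on the other side of 0 (-0.73 against 0.86).

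In the contractile list the sum and OSK pointed in opposite directions. Of 37 genes driven by serum response factor or encoding contractile proteins, Oct4 raised 20 and lowered 6, Sox2 raised 19 and lowered 7, Klf4 raised 5 and lowered 22, and OSK raised 2 and lowered 24. OSK lay below the sum for 24 and above it for 3, with 18 reversed, and the median was 0.86 for the sum and -0.73 for OSK (median departure -1.48). The share called was 73.0% against 35.9% of all genes tested. Klf4 was the nearest group for 25 of the 37, and OSK was below every other group for 9. ACTA2, smooth muscle actin, had 266, 752 and 567 normalised counts in the GFP libraries, 2902 and 3703 with Oct4, 1753 and 2106 with Sox2, 268 and 250.2 with Klf4 and 176 and 153 with OSK. Oct4 and Sox2 libraries were above all others, Klf4 libraries lay close to the lowest GFP library, and OSK libraries were below every other library. The sum was 3.84, the OSK change -1.56 and the departure -5.40 (SE 0.56, limma adjusted p = 1.68e-06). OSK did not differ detectably from Klf4 for ACTA2 (log2 difference -0.66, limma adjusted p = 0.149). TAGLN, an actin-binding protein of smooth muscle, had 1999, 5105 and 3551 normalised counts in the GFP libraries, 10657 and 10954 with Oct4, 12300.1 and 12135 with Sox2, 844 and 996 with Klf4 and 594 and 594 with OSK. Sox2 and Oct4 libraries were above all others, Klf4 libraries were below every GFP library, OSK libraries were below every other library, and the departure was -4.22 (SE 0.47, limma adjusted p = 4.09e-06). LMOD1, a nucleator of actin filaments, departed by -4.98 (SE 0.40, limma adjusted p = 1.08e-07).

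Matrix genes followed in part. In the list of collagen processing and matrix glycoproteins OSK lay below the sum for 17 of 38 and above it for 4 (median -0.92), with 9 reversed. The share called was 55.3% against 35.9% of all genes tested. FN1, fibronectin, had 5613, 7716 and 6460.4 normalised counts in the GFP libraries, 68911 and 61434 with Oct4, 47756 and 35718 with Sox2, 2798 and 4301 with Klf4 and 3450.5 and 4298 with OSK. Oct4 and Sox2 libraries were far above GFP, and Klf4 and OSK libraries below it, so the sum of 5.06 stood against an OSK change of -0.76 and a departure of -5.82 (SE 0.34, limma adjusted p = 3.74e-09). TGM2, a transglutaminase that crosslinks matrix, had 257, 615 and 354 normalised counts in the GFP libraries, 8232 and 6419.7 with Oct4, 8434 and 6701 with Sox2, 142 and 242 with Klf4 and 246 and 255 with OSK. It was the reversed gene furthest below the sum under the naming rule, at -8.11 (SE 0.53, limma adjusted p = 1.49e-08), and its OSK libraries lay between those of Klf4 and GFP. ADAM19, a membrane metalloprotease, departed by -7.46 (SE 0.18, limma adjusted p = 6.32e-13), with OSK libraries of 160.4 and 169 against 179.7, 187 and 184 in GFP and 6777 and 6468 with Oct4.

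**Figure D3:**
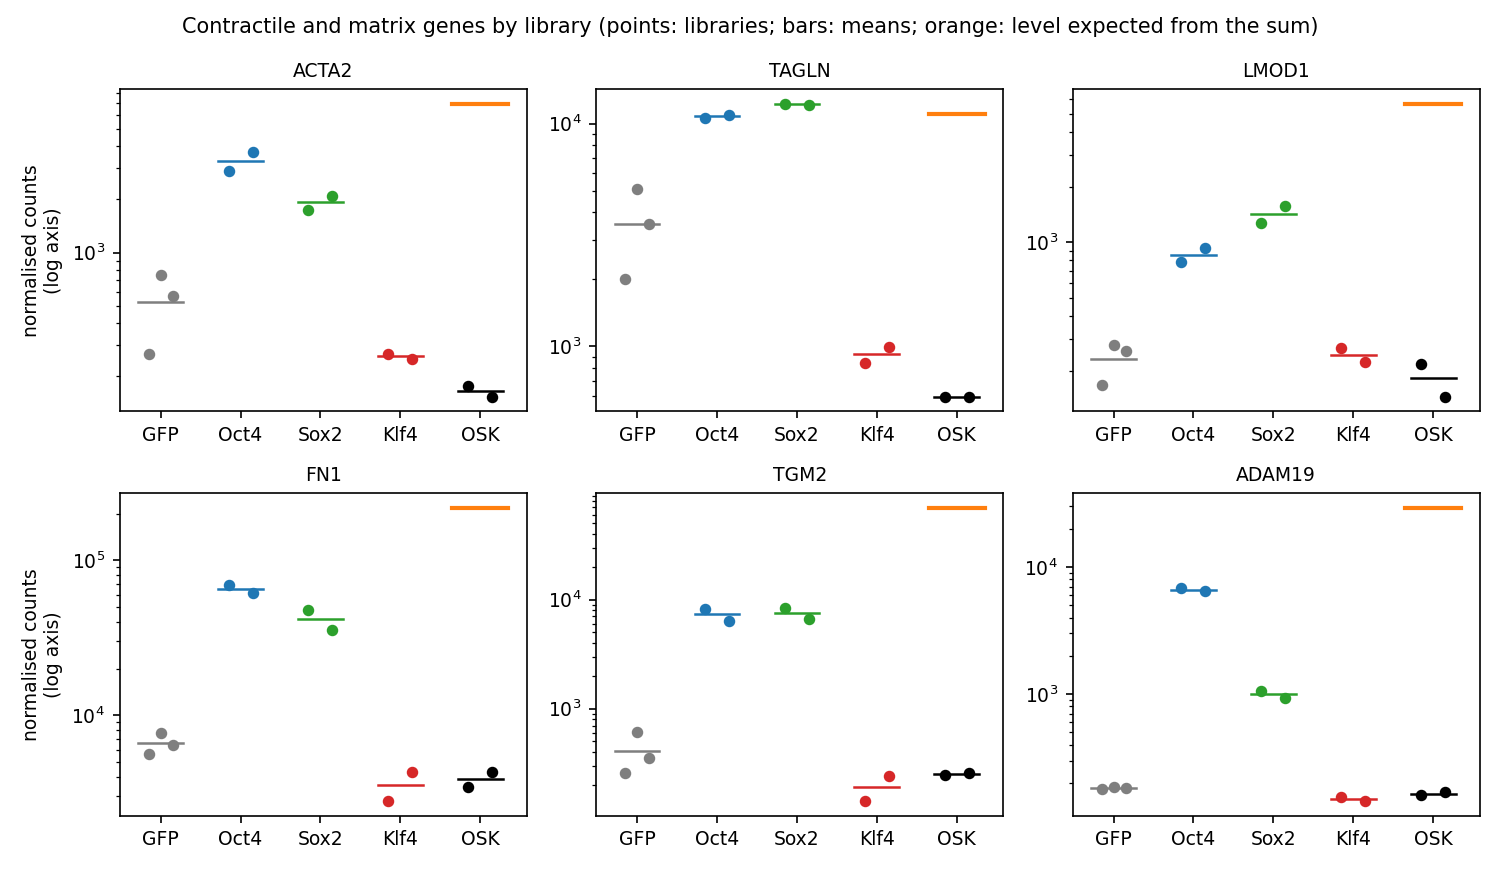
Normalised counts (y axis, log scale) of 6 contractile and matrix genes in every library (points) by group (x axis), with group means as bars and the level expected from the summed log2 changes in orange. For ACTA2 the OSK libraries sit at 153 and 176 and the expected level at 6970.

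COL4A1 and COL4A2, paired chains of basement membrane collagen, differed from FN1 in that Klf4 also raised them, by 0.72 (limma adjusted p = 0.0154) and 0.66 (limma adjusted p = 0.0169) on the log2 scale. COL4A1 had 5893, 12807 and 10112 normalised counts in the GFP libraries, 15927 and 15716 with Oct4, 31295 and 30909 with Sox2, 16041 and 14172 with Klf4 and 5775 and 4348 with OSK. All single-factor libraries lay above all GFP libraries, and both OSK libraries lay below all GFP libraries, with an OSK change of -0.87 against a sum of 3.28 and a departure of -4.15 (SE 0.43, limma adjusted p = 1.63e-06). COL4A2 departed by -3.19 (SE 0.40, limma adjusted p = 1.24e-05), with OSK libraries of 11937 and 9164 overlapping GFP libraries of 10198, 20517 and 17676. In the whole list of 26 collagens OSK was below the sum for 8 and above for 4 (46.2% called against 35.9% of all genes tested, median departure 0.11). That median was -0.30 without GFP replicate 1, -0.02 with TMM over all features and -0.58 without members at 3 or fewer reads throughout a group. COL5A2, a fibrillar collagen, stayed above GFP in OSK, with 1839 and 1765 against 917, 1008 and 973, and departed by -3.55 (SE 0.19, limma adjusted p = 2.27e-09). Integrins and laminins were below for 13 of 27 and above for 6 (median -0.67), among them ITGA4, the alpha 4 integrin, at -4.53 (SE 0.38, limma adjusted p = 1.77e-07).

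Several receptor and signalling genes raised by Oct4 and Sox2 stood near the GFP level in OSK. NRP2, a co-receptor for semaphorins and VEGF, had 55.6, 90.0 and 78.7 normalised counts in the GFP libraries, 1974 and 1699.6 with Oct4, 954 and 743 with Sox2, 44.0 and 68.6 with Klf4 and 74.8 and 109 with OSK. Klf4 and OSK libraries overlapped those of GFP, and the departure was -7.42 (SE 0.44, limma adjusted p = 5.34e-09). INHBA, a subunit of activin, had 36.7, 76.9 and 28.2 normalised counts in the GFP libraries, 209 and 264 with Oct4, 1565 and 1777 with Sox2, 34.7 and 52.6 with Klf4 and 72.6 and 57.2 with OSK. OSK libraries lay within the GFP range, and the departure was -7.08 (SE 0.61, limma adjusted p = 2.79e-07). DUSP6, which switches off ERK, had 87.4, 91.0 and 77.8 normalised counts in the GFP libraries, 662 and 686 with Oct4, 1089 and 1236 with Sox2, 96 and 75.4 with Klf4 and 145 and 133 with OSK. OSK libraries lay just above GFP and Klf4 and far below Oct4 and Sox2, and the departure was -6.02 (SE 0.26, limma adjusted p = 3.11e-10). IL7R, the interleukin-7 receptor, gave the departure lowest of all genes tested, at -12.71 (SE 1.53, limma adjusted p = 8.64e-06). It rests on a Sox2 rise to 3192 and 2754 from GFP libraries of 15.9, 0 and 0.970, levels at which a product of folds is poorly defined. MFSD2A, a lipid transporter, was raised by each single factor and departed by -7.57 (SE 0.78, limma adjusted p = 1.77e-06). PCDH1, a protocadherin, was raised most by Klf4 (8821 and 8577) and had 944 and 929 in OSK, so here OSK did not follow the Klf4 line (log2 difference -3.21, limma adjusted p = 6.92e-10).

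Opposition between factors was scored where a factor raised a gene, another lowered it and the 2 lines themselves differed. It was found for 1930 genes (10.3% of genes tested), or 1239 with TMM scaling over all features. Of the 1930, OSK raised 531, lowered 682 and did not detectably change 717. Of the same genes 989 (51.2%) were non-additive, against 35.9% of all genes tested. The opposed genes were selected on changes in the same libraries. Of 625 genes raised by Oct4 and lowered by Klf4, OSK was nearer to the Klf4 line for 529 (84.6%). Of 554 raised by Sox2 and lowered by Klf4, it was nearer to Klf4 for 473 (85.4%). When Klf4 was the raising factor the share was smaller, with OSK nearer to Klf4 for 364 of 596 genes lowered by Oct4 (61.1%) and for 372 of 568 lowered by Sox2 (65.5%). Between Oct4 and Sox2, OSK was nearer to Oct4 for 41.2% of 318 genes raised by Oct4 and lowered by Sox2, and nearer to Sox2 for 46.7% of the 210 opposed the other way. These shares are descriptions with no test. POU5F1 and SOX2, but not KLF4, were detectably lower in OSK than in their own lines. The part of these levels in the shares was not tested.

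**Figure D4:**
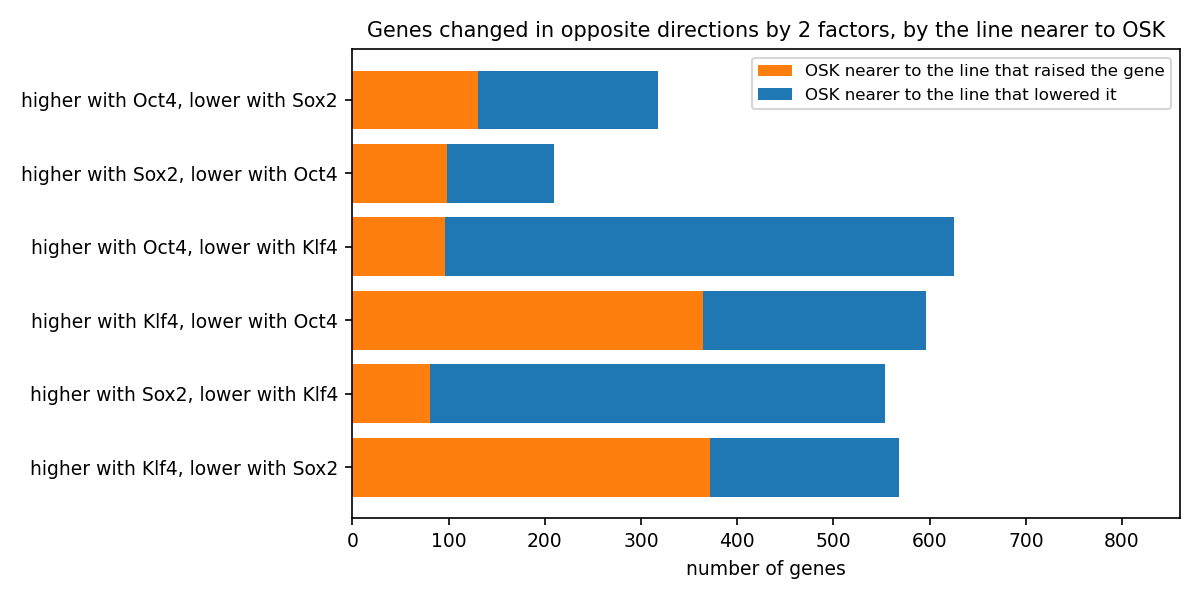
Number of genes (x axis) raised by 1 factor and lowered by another, for the 6 ordered pairs of factors (y axis), split by which of the 2 lines the OSK mean was nearer to. In the bars where Klf4 lowered the gene, the blue part, nearer to the lowering line, holds 529 of 625 and 473 of 554 genes.

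Single opposed genes showed each outcome. ABLIM3, an actin-binding LIM protein, had 46.7, 38.4 and 28.2 normalised counts in the GFP libraries, 985 and 1064 with Oct4, 160.4 and 109 with Sox2, 18.5 and 25.1 with Klf4 and 61.8 and 63.8 with OSK. Oct4 and Sox2 raised it and Klf4 lowered it, OSK libraries lay between Klf4 and Sox2, and the departure was -5.06 (SE 0.47, limma adjusted p = 5.3e-07). TSPAN2, a tetraspanin, went down to 17.3 and 11 in OSK from 463 and 394 with Oct4, close to the Klf4 libraries of 9.25 and 8. NRP1, the sister receptor of NRP2, was an exception, with 275, 241 and 251 normalised counts in the GFP libraries, 3565 and 3280.2 with Oct4, 123 and 106 with Sox2, 119 and 165 with Klf4 and 2323 and 2229 with OSK. Sox2 and Klf4 lowered it, Oct4 raised it, and OSK stayed nearer to Oct4 than to any other group, so the departure was 1.42 (SE 0.24, limma adjusted p = 0.000253). On the linear scale the sign of the NRP1 departure was the opposite (-891.8 normalised counts). CPA4, a carboxypeptidase, had 94.3, 88.0 and 91.4 normalised counts in the GFP libraries, 1713 and 2296 with Oct4, 20.2 and 28.3 with Sox2, 466 and 391 with Klf4 and 2609 and 1787 with OSK. Oct4 raised it, Sox2 lowered it, and OSK overlapped Oct4, and the departure of -0.20 (SE 0.34, limma adjusted p = 0.687) was not past the threshold, with a 95% interval from -0.93 to 0.53. CA9, carbonic anhydrase 9, was raised by Klf4 to 2792 and 1756 and stood at 279.7 and 186 in OSK, and its departure of 0.64 (SE 0.57, limma adjusted p = 0.422) did not pass either. RAPGEF3, a cAMP-activated exchange factor, had a departure of -0.48 (SE 0.55, limma adjusted p = 0.539), which became -1.29 (limma adjusted p = 0.00384) without GFP replicate 1, whose value of 161 stood against 63.7 and 73.9 in the other GFP libraries.

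Synergy was rare but included abundant genes. GSN, gelsolin, which severs and caps actin filaments, had 3087, 3071 and 2869.6 normalised counts in the GFP libraries, 4474 and 3843 with Oct4, 7224 and 6431 with Sox2, 7363 and 7689 with Klf4 and 89669 and 92031 with OSK. Each factor raised it, no libraries overlapped between GFP and any factor line, and OSK was 30.2 times GFP. The product of the 3 folds would give 23500 normalised counts, and the departure was 1.95 (SE 0.15, limma adjusted p = 1.06e-07). KCTD12, an auxiliary subunit of GABA-B receptors, had 55.6, 94.1 and 71.0 normalised counts in the GFP libraries, 159 and 155 with Oct4, 95.4 and 119 with Sox2, 401 and 377 with Klf4 and 5436 and 6016 with OSK. All factor libraries were above all GFP libraries and the OSK libraries were above all others, with a sum of 4.09, an OSK change of 6.29 and a departure of 2.20 (SE 0.34, limma adjusted p = 8.99e-05). GSN and KCTD12 were each raised by all 3 factors and further by OSK.

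The 250 bases before the RefSeq start of KCTD12 (chr13:76886406-76886655, minus strand, GRCh38.p14) are shown because the gene responded to each factor. Capitals mark the octamer ATGCAAAT, a known Oct4-type element, and GGGTGG, the reverse complement of the Klf core letters CCACCC.
KCTD12: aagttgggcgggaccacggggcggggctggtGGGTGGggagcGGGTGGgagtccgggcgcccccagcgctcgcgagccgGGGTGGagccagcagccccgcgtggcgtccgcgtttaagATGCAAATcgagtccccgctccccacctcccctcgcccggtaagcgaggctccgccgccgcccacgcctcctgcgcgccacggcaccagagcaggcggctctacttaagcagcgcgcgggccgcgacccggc
The octamer began 132 bases before the start, and GGGTGG began 219, 208 and 171 bases before it. Of all 35116 promoters of this length 1.63% held the octamer and 31.3% the Klf core on either strand, and the Sox core ACAATG, found in 9.29%, was not in this window.

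Other genes stood above the sum after a rise with Klf4 alone or with no single factor. HPSE, heparanase, had 137, 128 and 96.2 normalised counts in the GFP libraries, 80.1 and 81.3 with Oct4, 98.7 and 101 with Sox2, 400.2 and 269.7 with Klf4 and 1751 and 1386 with OSK. Only Klf4 raised it, Oct4 lowered it, OSK was above every other library, and the departure was 3.05 (SE 0.35, limma adjusted p = 6.02e-06). GLRX, glutaredoxin, which reduces glutathione-protein disulphides, had 155, 148 and 151 normalised counts in the GFP libraries, 128 and 181 with Oct4, 116 and 113 with Sox2, 183 and 177 with Klf4 and 1042 and 1119 with OSK. Its single-factor libraries stayed within 113 to 183, the sum was -0.14, and the departure was 2.97 (SE 0.27, limma adjusted p = 5.11e-07). LRRC4, a synaptic adhesion protein, had 35.8, 22.3 and 20.4 normalised counts in the GFP libraries, 13.9 and 17.2 with Oct4, 31.4 and 25.7 with Sox2, 35.9 and 30.9 with Klf4 and 414 and 346 with OSK. Its OSK libraries stood apart from all others, and the departure was 3.99 (SE 0.57, limma adjusted p = 5.17e-05). KRT13, a keratin of mucosal epithelia, had 28.8, 48.6 and 59.3 normalised counts in the GFP libraries, 34.8 and 38.9 with Oct4, 22.4 and 25.7 with Sox2, 1422 and 1469 with Klf4 and 3832 and 2913 with OSK. It rose with Klf4 and further with OSK, with a log2 difference from the Klf4 line of 1.21, limma adjusted p = 0.00202, and a departure of 2.28 (SE 0.45, limma adjusted p = 0.000878). FLVCR2, a membrane transporter, departed by 2.59 (SE 0.37, limma adjusted p = 4.27e-05), although OSK was not detectably above Klf4 (0.30, limma adjusted p = 0.353). TP73, a relative of p53, rose to 446 and 394 in OSK from 20.9, 5.06 and 1.94 in GFP. But its departure of 3.53 (SE 1.27, limma adjusted p = 0.0409) was 1.95 (limma adjusted p = 0.124) without GFP replicate 1. With a pseudocount of 0.5 (limma adjusted p = 0.062) or with no filter (limma adjusted p = 0.112) it missed the threshold as well. The TP73 departure, 2.88 to 3.75, also missed the threshold without Oct4 replicate 2 or without any 1 of the Sox2, Klf4 or OSK libraries (limma adjusted p from 0.0599 to 0.119).

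Some genes were reversed upward. TMC6, a membrane protein of the endoplasmic reticulum, had 541, 647 and 618 normalised counts in the GFP libraries, 239 and 298 with Oct4, 103 and 96.8 with Sox2, 778 and 633 with Klf4 and 6400.1 and 5662 with OSK. Oct4 and Sox2 lowered it, Klf4 left it near GFP and OSK raised it 10-fold, a departure of 6.84 (SE 0.23, limma adjusted p = 2.13e-11). NDRG4 had 4057, 4426 and 3838 normalised counts in the GFP libraries, 1971 and 1819 with Oct4, 539 and 496 with Sox2, 2320.2 and 2666 with Klf4 and 5088 and 5127 with OSK. Every factor alone lowered it and both OSK libraries were above every GFP library, with a departure of 5.14 (SE 0.16, limma adjusted p = 9.25e-12). HR, a repressor that works with nuclear receptors in skin, departed by 5.07 (SE 0.35, limma adjusted p = 2.43e-08), with OSK libraries of 1835 and 1784 not detectably different from Klf4 libraries of 1619 and 1632. TGFBR3, a co-receptor for TGF-beta, departed by 4.88 (SE 0.31, limma adjusted p = 1.18e-08), with an OSK level near GFP. KLF9, a sister factor of Klf4 that responds to hormones, had 4019.8, 4308 and 4294 normalised counts in the GFP libraries, 3280.3 and 2985 with Oct4, 2191 and 2254 with Sox2, 3616 and 3966 with Klf4 and 8914 and 8889 with OSK. It was lower than GFP with Oct4 and Sox2 and above every other library in OSK, and departed by 2.58 (SE 0.14, limma adjusted p = 1.38e-09). C1S, a complement protease, departed by 3.92 (SE 0.37, limma adjusted p = 6.34e-07). In the complement list 8 of 18 were above and 3 below the sum (median 0.77). The share called was 61.1% against 35.9% of all genes tested.

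In the other direction, ANGPTL7, a secreted angiopoietin-like protein of the eye, had 790.5, 1103 and 1022 normalised counts in the GFP libraries, 1414 and 1222 with Oct4, 1233 and 992 with Sox2, 709 and 603 with Klf4 and 108 and 132 with OSK. Oct4 raised it, Klf4 lowered it, the sum was 0.10, and OSK was below every other library with a departure of -3.09 (SE 0.28, limma adjusted p = 4.24e-07). TNS1, tensin 1, which ties integrins to actin, had 2615, 5099.7 and 3696 normalised counts in the GFP libraries, 6606 and 5972 with Oct4, 7838 and 6991 with Sox2, 7019.6 and 8181 with Klf4 and 833 and 899 with OSK. Each single factor raised it and OSK lowered it below every GFP library, a departure of -4.92 (SE 0.36, limma adjusted p = 3.95e-08). PDGFB, a growth factor for mesenchymal cells, had 58.6, 83.0 and 71.0 normalised counts in the GFP libraries, 222 and 109.9 with Oct4, 841 and 727 with Sox2, 112 and 118 with Klf4 and 10.8 and 25.3 with OSK. It was highest with Sox2 and lowest in OSK, and departed by -7.32 (SE 0.61, limma adjusted p = 1.9e-07). RHOB, a small GTPase of endosomes and the cytoskeleton, had 4446, 6532 and 6390.4 normalised counts in the GFP libraries, 3912 and 3317 with Oct4, 7073 and 7429 with Sox2, 5081 and 4650.5 with Klf4 and 1737 and 1744 with OSK, with OSK below all others and a departure of -1.16 (SE 0.25, limma adjusted p = 0.00188). LTBP2, a matrix partner of fibrillin, departed by -1.69 (SE 0.40, limma adjusted p = 0.00334), and by -1.09 (limma adjusted p = 0.0388) without GFP replicate 1 and OSK replicate 1. CDH1, E-cadherin, departed by -2.47 (SE 0.33, limma adjusted p = 2.72e-05), with CDH1 at 71.5 and 47.3 in OSK and 199.6, 259 and 245 in GFP. COL1A1, the main chain of type I collagen, departed by -1.48 (SE 0.41, limma adjusted p = 0.0101), which became -0.84 (limma adjusted p = 0.125) without GFP replicate 1 and OSK replicate 1.

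**Figure D5:**
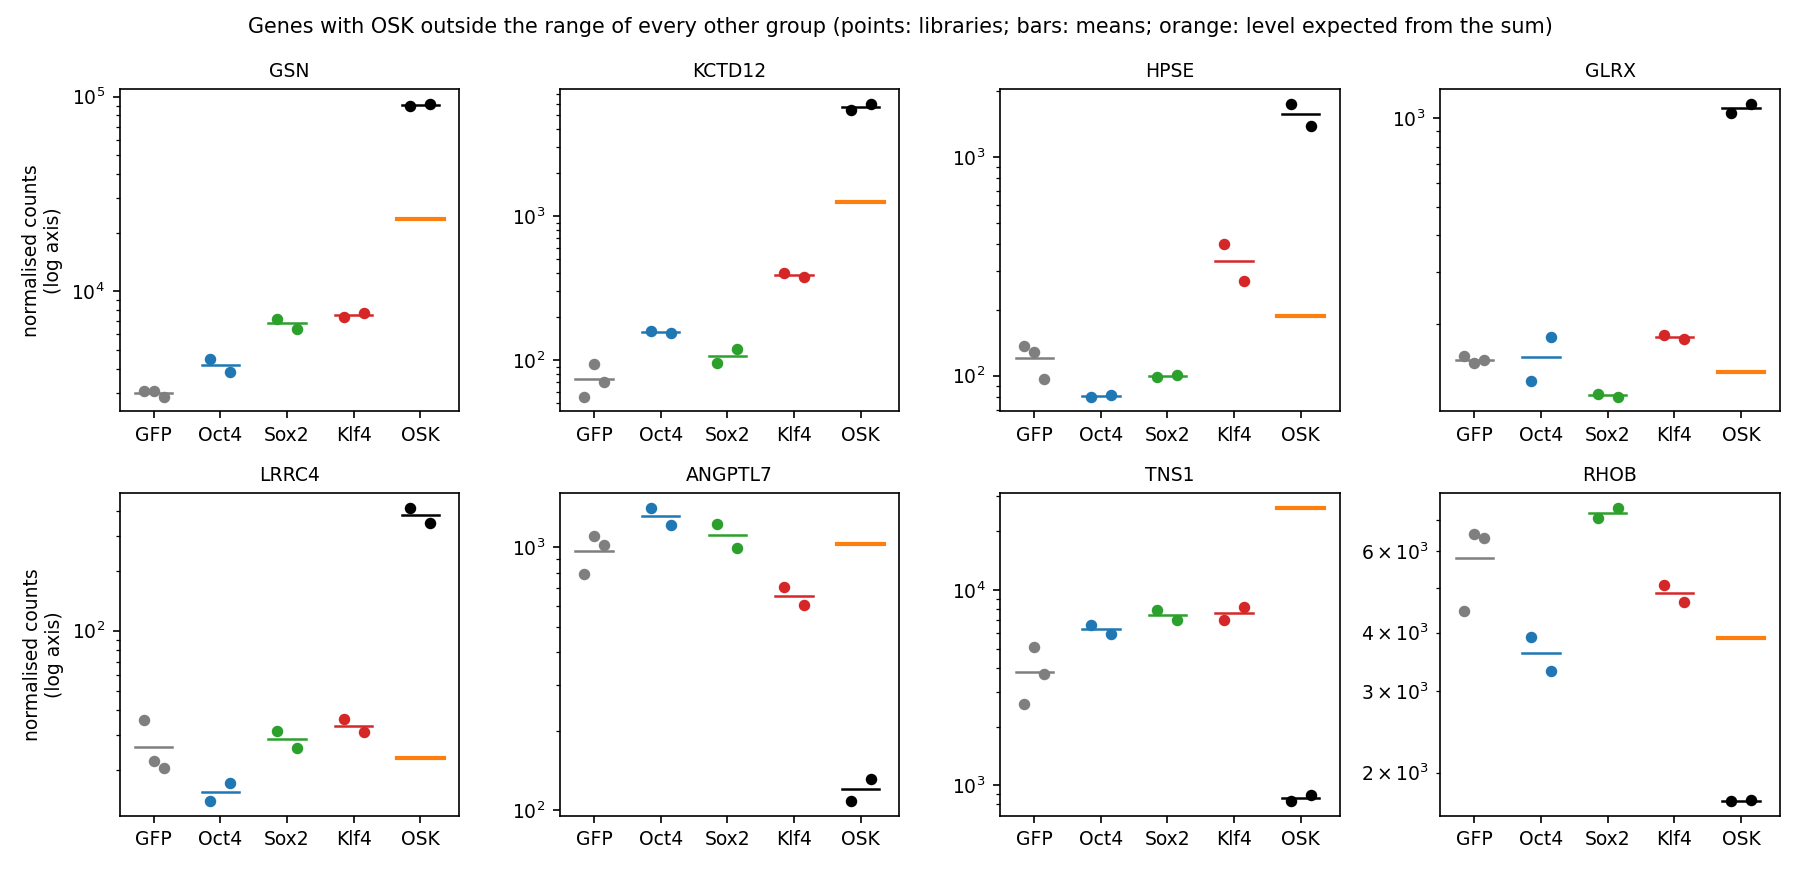
Normalised counts (y axis, log scale) of 8 genes in every library (points) by group (x axis), with group means as bars and the level expected from the summed log2 changes in orange. In all 8 panels both OSK libraries lie outside the range of every other library, as for GLRX with 1042 and 1119 in OSK and at most 183 elsewhere.

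Counted over all genes, OSK was higher than each of the other 4 groups for 521 genes (2.77%) and lower for 631 (3.35%). Of the 521, the departure was above the sum for 284, below for 30 and not called for 207, with 39 synergistic, 146 emergent, 30 buffered and 99 reversed genes. Of the 631 it was below for 323, above for 48 and not called for 260. Both counts rest on 2 OSK libraries, and leaving out OSK replicate 2 or replicate 1 gave 315 and 322 genes higher and 416 and 400 lower. TMM scaling over all features gave 341 higher and 404 lower.

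Oxidative defence, the theme of the series, showed no common direction. Of 76 genes tested OSK lay above the sum for 28 and below it for 21, with 31 buffered, 11 reversed and 1 synergistic, and a median departure of 0.17. The share called was 64.5% against 35.9% of all genes tested. Sox2 raised 22 and lowered 27, Oct4 raised 16 and lowered 25, Klf4 raised 27 and lowered 11, and OSK raised 30 and lowered 21. GSTA4, a glutathione transferase that clears lipid aldehydes and appears in the title of the series, had 88.4, 127 and 125 normalised counts in the GFP libraries, 183 and 192 with Oct4, 169 and 194 with Sox2, 177 and 129 with Klf4 and 515 and 464 with OSK. Both OSK libraries lay above every other library. The sum was 1.85 and the OSK change 2.11, and the departure of 0.26 (SE 0.34, limma adjusted p = 0.594) was not past the threshold, with a 95% interval from -0.47 to 1.00. The GSTA4 departure ran from 0.04 without Klf4 replicate 2 to 0.60 (limma adjusted p = 0.141) without GFP replicate 1, and did not pass without any 1 library. GPX3, a secreted glutathione peroxidase, had 25404, 22825 and 23548 normalised counts in the GFP libraries, 7229.5 and 7694 with Oct4, 3858 and 3970.4 with Sox2, 14253 and 14629 with Klf4 and 8612 and 10022 with OSK. All factors lowered it, Sox2 most, OSK lay between Oct4 and Klf4, and the departure was 3.65 (SE 0.15, limma adjusted p = 2.08e-10). ALDH1A1, a retinal dehydrogenase, departed by 4.21 (SE 0.79, limma adjusted p = 0.000609) from low levels.

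Several lists had few calls or held calls in both directions. Over all genes tested 35.9% were called, 15.6% above and 20.3% below the sum. Oxidative phosphorylation (35.4%), epithelial junctions (38.2%) and cornified envelope genes (38.1%) were near that share. Metallothioneins had 0 calls among 6 genes with limma, edgeR or DESeq2 and 1 at an unadjusted limma p under 0.05, the proteasome 1 above and 7 below of 33, and oxidative phosphorylation 4 above and 13 below of 48 (median -0.07). Pluripotency genes were above the sum for 5 of 16, but for 2 with DESeq2 and for 1 without GFP replicate 1. Wnt (8 above and 11 below of 34), TGF-beta and BMP (12 and 13 of 35), axon guidance (11 and 16 of 54), and lysosome and autophagy (15 and 11 of 44) held calls both ways. So did matrix proteases (10 and 11 of 27), SOX and KLF families (8 and 3 of 19), the ATF4 and unfolded protein response (15 and 8 of 40), MAPK feedback and EGF ligands (8 and 12 of 31) and cadherins (3 and 7 of 20). Amino acid transporters were above for 8 and below for 4 of 24, chemokines and interleukins for 5 and 4 of 20, cornified envelope genes for 3 and 5 of 21 and regulators of epithelial-mesenchymal transition for 1 and 3 of 10. In the Notch list, where 3 of 17 were below and 2 above, JAG1, a Notch ligand, had 379, 429.9 and 426 normalised counts in the GFP libraries, 869 and 990.0 with Oct4, 4057 and 4351 with Sox2, 2405 and 2115 with Klf4 and 4698 and 4603 with OSK, with OSK near Sox2 and a departure of -3.48 (SE 0.17, limma adjusted p = 5.95e-10), and HEY1, a Notch target, departed by -3.21 (SE 0.51, limma adjusted p = 0.000145). In epithelial junctions 8 of 34 were above and 5 below, and CLDN1, a tight junction protein, departed by -2.72 (SE 0.29, limma adjusted p = 2.51e-06).

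Some genes lay close to the sum. GPC1, a cell-surface proteoglycan, had 4198, 5266 and 5402 normalised counts in the GFP libraries, 3074 and 2824 with Oct4, 2619 and 2671 with Sox2, 4517 and 4216 with Klf4 and 1339 and 1499 with OSK. Oct4 and Sox2 lowered it, Klf4 did not detectably change it, and OSK was below every other library, with a sum of -1.81, an OSK change of -1.80 and a departure of 0.01 (SE 0.19, limma adjusted p = 0.961). ADAMTS7, a matrix protease, departed by 0.01 (SE 0.25, limma adjusted p = 0.984), RFX2, a factor of cilia genes, by -0.02 (SE 0.22, limma adjusted p = 0.955), and ADTRP, a regulator of coagulation, by 0.05 (SE 0.28, limma adjusted p = 0.91). Their OSK levels were all lower than those of GFP, and the 95% interval for GPC1 ran from -0.39 to 0.42.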

How the data were processed

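The 11 libraries of polyadenylated RNA came from ARPE-19 lines. Per the file headers and the values, the authors deposited 1 table of normalised counts (a signal per gene), in which the reads of each library are scaled by its own factor. STAR 2.7.1a and featureCounts 1.6.2 are named in the submitters' processing notes, as are GRCh38, hg38, GRCm38 and mm10, with no role, and the use of strand is not given in the sources used here. Groups came from the sample titles. Genes at 10 or more in 2 or more libraries were fitted with limma 3.58.1 (R 4.3.3, eBayes with trend, 6 residual and 9.21 prior degrees of freedom) on log2(value + 1), with a mean per group, all 11 libraries sharing the spread, and Benjamini-Hochberg adjustment over 18828 genes. The procedure was tested on simulated data. Of the values up to 200, 100% in every library were whole multiples of 1 read (within 0.0061), so reads were recovered for edgeR 4.0.16 and DESeq2 1.42.0 as alternatives. Promoters came from RefSeq (GRCh38.p14).

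Named genes are the factor genes and GSTA4, at most 5 of the largest departures per class and direction, 3 per list, 5 per opposed pair and per direction beyond every line, and 5 near the sum, each above a minimum level. The rule selects 182 genes, of which the text names 96, and some are not reported here. CCNB2 and PLK1 fall outside it. The 41 lists were written from general knowledge, and the members and lists were chosen with earlier results of these data known. Alternatives were other scalings, tools, filters and pseudocounts, the bound on the sum, a replicate block and leaving out libraries. Differences between replicates 1 and 2 correlated at 0.412 between GFP and OSK and at 0.042 or less between the other pairs of groups, so numbers were not taken to pair libraries.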

Additional observations from a re-analysis of the deposited data

How the results depend on the processing

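The count of non-additive genes ran from 5401 to 6854 over the other scalings, tools, filters and pseudocounts, and from 5912 to 6895 when a library was left out. On recovered reads edgeR called 6768 and DESeq2 5764. Requiring a departure of at least 1 left 4017 genes, with 1723 above and 2294 below the sum and 42 synergistic, 179 emergent and 2619 buffered. TMM scaling over all features gave 1860 genes above the sum, 329 emergent and 1239 opposed genes, and 341 higher and 404 lower in OSK than in every other group; the share of calls above the sum was then 34.4% against 43.4%, and the median departure of all genes -0.14. With no filter there were 54 synergistic and 505 emergent genes and 420 lower in OSK than in every group, and the median departure was 0.66. The bound on the sum that sets the emergent class moved the classes by construction. A bound of 0.25 gave 141 synergistic and 310 emergent genes, and a bound of 1 gave 39 synergistic, 2340 emergent and 902 reversed genes. Leaving out each library in turn gave 315 to 624 genes higher and 400 to 776 lower in OSK than in every other group. Apart from changes by construction, the cause was not tested.

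With the replicate number as a block, 537 genes were emergent, 5854 were non-additive, and no other count moved by over 1.5 times. Replicate differences correlated at 0.412 between GFP and OSK and at -0.069 to 0.042 for the other pairs of groups, so the numbers were not taken as pairing. GFP replicate 1 and OSK replicate 1 were also the libraries with the most features detected, 42956 and 32493. GFP and OSK both enter the departure with a positive sign, so a shift shared by these libraries would not cancel in it. Such a shift was not tested.

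The naming rule selects 182 genes, of which 172 were called. Of these 24 missed the threshold in at least 1 setting, 10 of them without GFP replicate 1 and 15 without GFP replicate 1 and OSK replicate 1, a setting chosen after seeing the data, in which 6217 genes were non-additive, 5538 of them shared with the fit of all libraries. On the log2 scale 0 of the 172 changed sign in any setting. Among the 98 genes named in the text COL1A1 did not pass with DESeq2 (DESeq2 adjusted p = 0.065), nor did KLF4 (DESeq2 adjusted p = 0.0954). TP73 did not pass with a pseudocount of 0.5 (limma adjusted p = 0.062) or with no filter (limma adjusted p = 0.112). TP73, COL1A1 and RAPGEF3 changed their call when libraries were left out. Added on the linear scale, the departures of KLF4 (971.9 normalised counts) and NRP1 (-891.8) had the opposite sign. Of the 28 lists with a median departure of at least 0.2 in size, Notch, metallothionein and chemokine genes changed sign in some setting, as did 10 of the 13 lists with a smaller median.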
